A study of Mus musculus with 4 samples.

Results

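Oas1a, Oas1g, Oas2, Oas3, Oasl1, Oasl2, Eif2ak2 and Adar, the mouse genes of the oligoadenylate synthetase (OAS) family, the kinase PKR and the editing enzyme ADAR1 described here, make the interferon-inducible effectors that act on double-stranded RNA. They were taken by gene symbol from the deposited tables, where 8 of 54532 listed genes carried these symbols. RNA-seq of polyadenylated RNA was carried out on RAW 264.7 cells, a mouse macrophage line, in 4 groups of 1 library each. These were Hnrnpul1-/- cells treated with LPS, the lipopolysaccharide of the bacterial outer membrane, at 100 ng/ml for 10 h, wild-type cells given the same treatment, untreated Hnrnpul1-/- cells and untreated wild-type cells. The product of Hnrnpul1 is a nuclear protein that binds RNA. The labels do not say how the knockout line was made or whether it came from a single clone. The design sets LPS against no treatment in each genotype and the genotypes against each other in each state.

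OAS enzymes bind double-stranded RNA and then join ATP into short oligoadenylates, second messengers that lead to the breakdown of viral and cellular RNA. PKR, encoded by Eif2ak2, binds double-stranded RNA as well and phosphorylates the translation factor eIF2 alpha, which lowers protein synthesis. ADAR1 converts adenosine to inosine within double-stranded RNA, which makes a cell's own duplexes less visible to the sensors, PKR and the OAS enzymes included. In macrophages, LPS acts through TLR4 and leads to type I interferon, whose receptor switches these genes on through the factor ISGF3 and a DNA element called ISRE.

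The libraries held 17045432 to 17909549 counted reads over all genes. The targeted transcript matched the genotype labels: Hnrnpul1 stood at 21.7 CPM (counts scaled by library size, TMM-normalized) in LPS-treated knockout and 203 CPM in LPS-treated wild type, and at 23.1 CPM in untreated knockout and 268 CPM in untreated wild type. All 10 macrophage markers examined were detected in every library. Of 19 markers of T cells, B cells, fibroblasts, epithelium, endothelium and neutrophils, 12 had 0 reads in all 4 libraries and the highest, Cdh5, reached 21 reads. Ratios below are log2 ratios of normalized counts between 2 libraries with 95% counting intervals, and a gene is called where the ratio is at least 2-fold and its interval excludes 0. With 1 library per group no value has a replicate, so a ratio compares 2 libraries and its interval holds counting error alone. The labels name no molecular identifiers, so reads may not be independent molecules.

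The 6 OAS genes lie on chromosome 5 (GRCm38). Oasl2 (114896936 to 114912234) and Oasl1 (114923240 to 114937915) sit side by side on the plus strand within 41.0 kb. Oas2 (120730333 to 120749853), Oas3 (120753098 to 120777661), Oas1g (120876142 to 120887613) and Oas1a (120896256 to 120907521) are all on the minus strand of a second cluster that spans 191 kb and holds 10 Oas genes. Eif2ak2 lies on chromosome 17 (78852564 to 78882573, minus strand) and Adar on chromosome 3 (89715022 to 89753446, plus strand). Oas1a and Oas1g are close copies by sequence: their coding sequences, 1101 bases each, were identical at 96.7% of positions. The other pairs of these 6 OAS genes were identical at 60.5 to 66.4% of aligned positions. Of the distinct 50-base words in Oas1a transcripts, 57.6% also occurred in Oas1g transcripts. Reads that match both genes may therefore have been split between them or left out by the authors' counting. Their separate values, and their levels against those of other genes, are thus uncertain. The other 6 genes shared at most 0.310% of such words with any gene.

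Promoter sequence is shown because all 8 genes rose with LPS, by very different amounts. RefSeq windows from 250 bases before to 50 bases after a start (GRCm38.p6) were at hand for 7 of the 8 genes, in 9 windows, with no window for Oas2. The ISRE core, searched as GAAANNGAAA on both strands, was found in 4 of these 7 genes and 4 of these 9 windows, against 3.44% of all 32851 RefSeq windows. The stretches below carry the match, written in the direction of the gene; capitals mark the joined matches to the ISRE core and to its shorter form GAAANNGAA, which the core contains and which occurs in 8.56% of all windows.
Oas1a: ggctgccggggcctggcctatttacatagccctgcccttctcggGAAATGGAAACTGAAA
Oas1g: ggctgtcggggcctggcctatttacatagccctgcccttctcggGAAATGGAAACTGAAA
Oas3: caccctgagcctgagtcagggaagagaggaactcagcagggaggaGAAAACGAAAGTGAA
Eif2ak2: ccgccggGAAAACGAAACAGAAgagaaccg
Adar: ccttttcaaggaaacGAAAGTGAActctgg

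The Oas1a stretch (chr5:120907530-120907589, minus strand) ends 5 bases before the start and the Oas1g stretch (chr5:120887616-120887675, minus strand) ends 3 bases before it. They were identical at 59 of 60 bases, all 16 capitals included, and each holds a pair of overlapping ISRE cores. In Oas3 (chr5:120777720-120777779, minus strand) the stretch runs from 120 to 61 bases before the start. The Eif2ak2 match (chr17:78882532-78882561, minus strand) lies just after the start, with its core at bases 19 to 28. Adar has 3 RefSeq windows; none holds the full core, and the stretch from the third (chr3:89730736-89730765, plus strand) holds the shorter form at bases 34 to 42 after the start. The windows of Oasl1 and Oasl2, the pair with the largest LPS ratios, held neither form. The GAS element, searched as TTCNNNGAA, was found in 3 of the 7 genes (Oas1a, Eif2ak2 and Adar), and in 8.30% of all windows. A match is a description of letters and not of binding, and a missing match applies to these windows alone.

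The 8 genes together took 53788 reads (0.300% of all reads) in LPS-treated knockout and 55544 (0.326%) in LPS-treated wild type, against 6996 (0.0403%) for untreated knockout and 4985 (0.0290%) for untreated wild type. Levels were compared between genes as CPM per kilobase of the deposited gene length. The order of genes depends on that length, which the counting intervals do not cover. Which transcript forms these cells use was not examined. Under LPS the order was the same in both genotypes: Oasl1, Oas1a, Oas1g, Eif2ak2, Oas3, Oas2, Oasl2 and Adar, from high to low. Among neighbours in that order, only Eif2ak2 and Oas3 in LPS-treated knockout had overlapping counting intervals. Without LPS the order was Oas1a, Eif2ak2, Adar, Oas1g, Oas3, Oasl1, Oas2 and Oasl2 in both genotypes. Several untreated neighbours could not be separated at this depth, namely Oas1g and Oas3, and Oasl1 and Oas2, in both genotypes, and also Oas1a and Eif2ak2, and Eif2ak2 and Adar, in wild type.

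**Figure D1:**
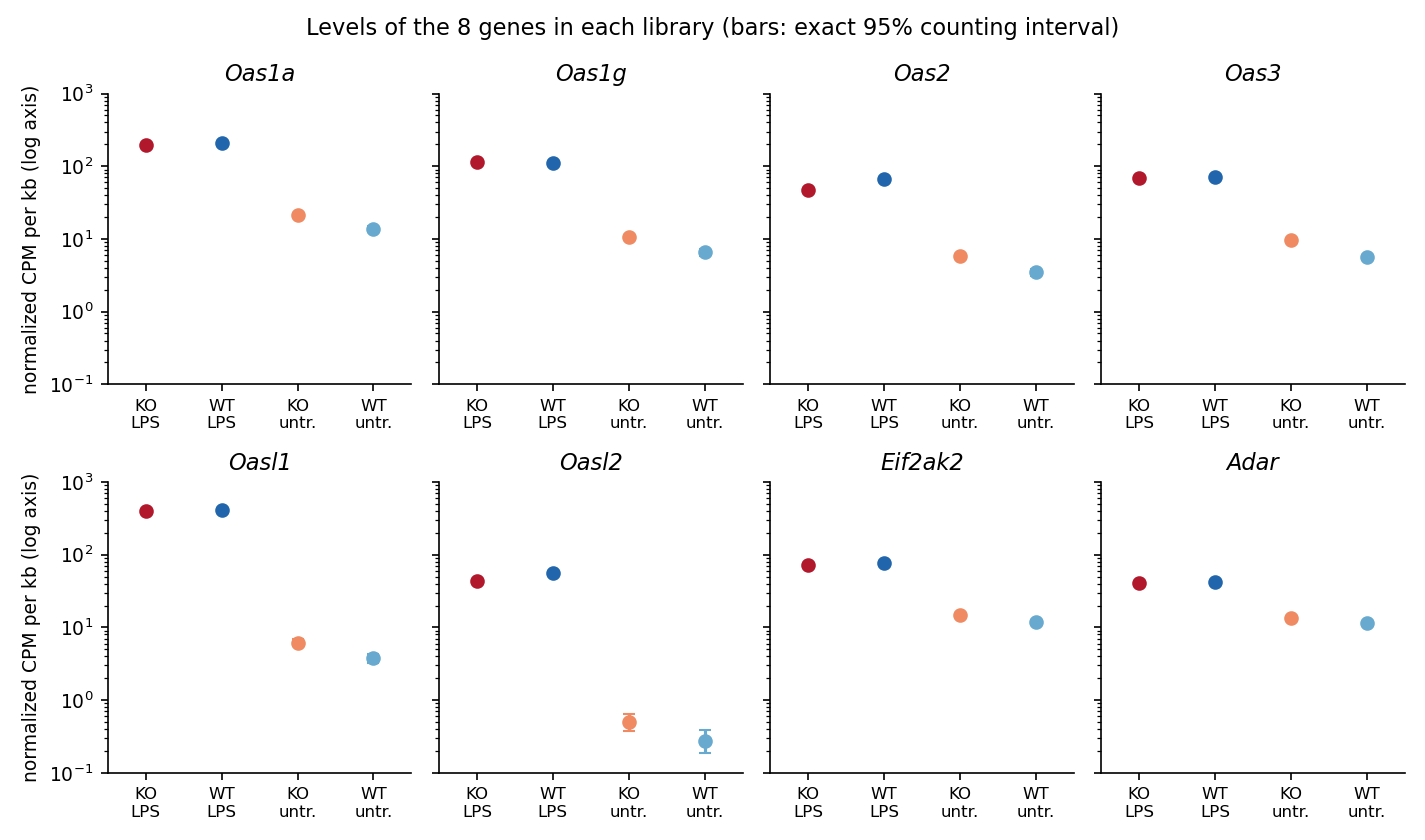
Level of each of the 8 genes in each library, as normalized CPM per kilobase on a log axis. Points are single libraries, grouped as LPS-treated knockout, LPS-treated wild type, untreated knockout and untreated wild type from left to right, and bars are exact 95% Poisson counting intervals, mostly smaller than the points; Oasl2 spans the widest range, between 0.273 in untreated wild type and 55.6 in LPS-treated wild type.

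Oasl1, whose protein lacks synthetase activity and is known in mouse to hold back translation of Irf7 mRNA, had the highest level per length with LPS. Its level was 394 CPM per kilobase in LPS-treated knockout and 413 in LPS-treated wild type, against 6.14 for untreated knockout and 3.77 for untreated wild type. Without LPS it stood below 5 of the other genes. By level per length it ranked 126 in LPS-treated knockout and 107 in LPS-treated wild type among 10334 protein-coding genes, against 6120 and 7402 in untreated knockout and untreated wild type. Oasl2, its neighbour, which in mouse keeps synthetase activity, had 43.8 and 55.6 CPM per kilobase in LPS-treated knockout and wild type, and 0.494 and 0.273 in untreated knockout and wild type. The untreated values rested on 61 reads (knockout) and 33 reads (wild type), the lowest counts among the 8 genes. Per length, Oasl1 exceeded Oasl2 in every library, by between 7.43-fold (LPS-treated wild type) and 13.8-fold (untreated wild type).

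LPS raised all 8 genes in both genotypes. Each was called higher in knockout and in wild type, where 11.6% and 11.2% of the 11640 genes tested were called higher. The median log2 ratio of the 8 genes was 3.11 in knockout and 4.01 in wild type, against -0.02 and -0.004 over all genes. The ratios span a wide range, from Adar to Oasl2, and 3 sets of genes kept the same order in both genotypes. The OAS-like pair was at the top, the 4 genes of the second cluster in the middle, and Eif2ak2 and Adar at the bottom. Only the OAS-like pair was set far apart. In knockout Eif2ak2, at 2.26, lay between Oas3 at 2.86 and Adar at 1.62. In bulk RNA, more cells that express a gene and more RNA per cell cannot be told apart.

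At the top, Oasl2 had 279 CPM in LPS-treated knockout against 3.15 in untreated knockout, and 354 CPM in LPS-treated wild type against 1.74 in untreated wild type. Its log2 LPS ratio was 6.47 (6.11 to 6.86) in knockout and 7.67 (7.18 to 8.21) in wild type, or 88.7-fold and 204-fold; as log2(value + 1) of the deposited FPKM, which shrinks low values, the ratios were 4.88 and 5.44. Oasl1 had 1029 CPM in LPS-treated knockout against 16.0 in untreated knockout, and 1076 CPM in LPS-treated wild type against 9.84 in untreated wild type. Both LPS-treated libraries were far above both untreated ones for this pair. The Oasl1 ratio was 6.01 (5.84 to 6.17) in knockout and 6.77 (6.56 to 6.99) in wild type. Ranked over all genes tested, Oasl2 and Oasl1 took places 77 and 91 by LPS ratio in knockout and 43 and 65 in wild type. Oasl1 overlaps the antisense gene Gm13822 by 38 bases; that gene had 269 and 195 reads in LPS-treated knockout and wild type and 39 and 23 in untreated knockout and wild type, against 187 to 16564 reads of Oasl1. The strand setting of the counting is unknown here, so reads in the shared bases cannot be told apart.

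The 4 synthetase genes of the second cluster rose by similar amounts. Oas1a, a small synthetase, had 369 CPM in LPS-treated knockout and 396 CPM in LPS-treated wild type, against 40.5 CPM in untreated knockout and 26.0 CPM in untreated wild type. Its copy Oas1g had 267 and 260 CPM in LPS-treated knockout and wild type, against 24.5 and 15.3 CPM in untreated knockout and wild type. For both genes the 2 LPS-treated libraries lay close together, and of the untreated libraries the knockout was the higher. Their LPS ratios were 3.19 (3.08 to 3.30) and 3.44 (3.31 to 3.58) in knockout, and 3.93 (3.80 to 4.07) and 4.09 (3.92 to 4.27) in wild type. The per-length ratio of Oas1a to Oas1g was 1.72 and 1.89 in LPS-treated knockout and wild type. It was 2.05 and 2.11 in untreated knockout and wild type, within the limit that reads of the copies may be split or left out.

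Oas3, the large synthetase that prefers long duplexes, had 489 CPM in LPS-treated knockout and 499 CPM in LPS-treated wild type, against 67.2 CPM in untreated knockout and 39.9 CPM in untreated wild type. Oas2, the synthetase of intermediate size, had 208 CPM in LPS-treated knockout and 296 CPM in LPS-treated wild type, against 25.6 CPM in untreated knockout and 15.5 CPM in untreated wild type. Of the 4 genes, Oas2 was the one whose LPS-treated libraries lay apart, with knockout below wild type. The LPS ratio of Oas3 was 2.86 (2.78 to 2.95) in knockout and 3.64 (3.54 to 3.75) in wild type, and that of Oas2 was 3.03 (2.89 to 3.17) and 4.26 (4.09 to 4.43). Per length, Oas3 exceeded Oas2 by 1.48-fold in LPS-treated knockout, 1.06-fold in LPS-treated wild type, 1.66-fold in untreated knockout and 1.62-fold in untreated wild type. Oas2 shares 1273 bases with Gm43068 on the opposite strand. Gm43068 had 31 and 35 reads in LPS-treated knockout and wild type and 2 in each untreated library, against 294 to 4540 reads of Oas2. How far this overlap bears on the Oas2 counts was not tested.

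Eif2ak2 and Adar rose least. Eif2ak2 had 368 CPM in LPS-treated knockout and 393 CPM in LPS-treated wild type, against 76.7 CPM in untreated knockout and 61.5 CPM in untreated wild type. Adar had 331 and 344 CPM in LPS-treated knockout and wild type, against 107.6 and 92.8 CPM in untreated knockout and wild type. Per length, Adar stood below 2 of the other genes without LPS and below all 7 with it. The LPS ratio of Eif2ak2 was 2.26 (2.18 to 2.35) in knockout and 2.68 (2.59 to 2.77) in wild type, and that of Adar was 1.62 (1.55 to 1.69) and 1.89 (1.81 to 1.97). Adar shares 7252 bases with Chrnb2 on the opposite strand, which had 186 and 216 reads in LPS-treated knockout and wild type and 217 and 227 in untreated knockout and wild type. Eif2ak2 shares 532 bases with Gm26637 (1 to 26 reads) and 119 bases with n-R5s29 (0 to 2 reads), also on the opposite strand. With the strand setting unknown, how far these overlaps bear on the Adar and Eif2ak2 counts was not tested.

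**Figure D2:**
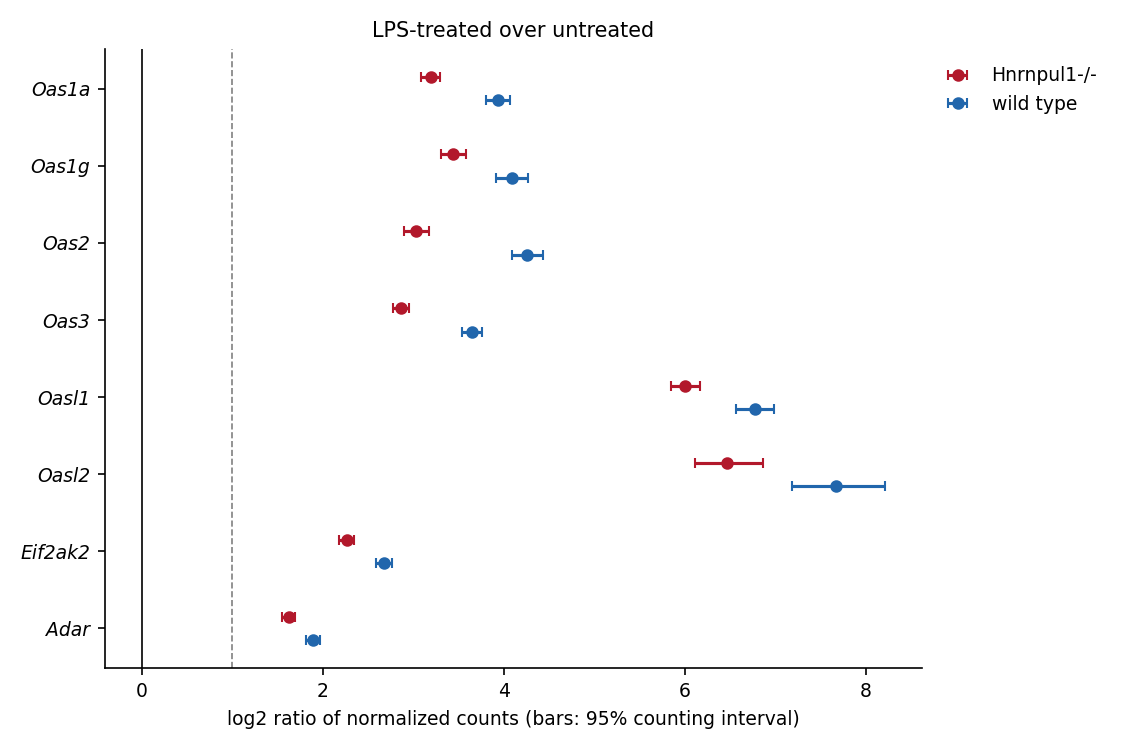
Log2 ratio of normalized counts, LPS-treated over untreated, for the 8 genes in knockout (red, upper point of each pair) and wild type (blue, lower point), with 95% counting intervals; the dashed line marks 2-fold. All 16 points lie beyond 2-fold, between 1.62 for Adar in knockout and 7.67 for Oasl2 in wild type, and the knockout point lies left of the wild-type point for each gene.

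An additive model of genotype and LPS over the 4 libraries, with 1 residual degree of freedom, was also fitted. In place of a spread between replicates it takes the difference of the LPS effect between genotypes. In edgeR's quasi-likelihood test all 8 genes passed for LPS, with log2 fold changes of 1.75 to 7.0. Their standard errors, derived from the fold change and the F statistic, were 0.0844 to 0.242. Benjamini-Hochberg adjusted p in that test was 5.83e-08 to 5.90e-06. The LPS effect was called for 60.3% of all genes and called higher for 30.2%. The model assumes the same LPS effect in both genotypes, from which the ratios above departed. That departure enters the error of the model, for its genotype term as well as its LPS term.

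Without LPS, all 8 genes were higher in knockout than in wild type by less than 2-fold. None was called, where 2.01% of all genes were called in either direction. The counting interval lay above 0 for 8 of 8, against 15.8% of all genes. The untreated genotype log2 ratio was 0.64 (0.48 to 0.81) for Oas1a, 0.68 (0.47 to 0.90) for Oas1g, 0.72 (0.51 to 0.94) for Oas2 and 0.75 (0.62 to 0.88) for Oas3. It was 0.70 (0.43 to 0.97) for Oasl1 and 0.86 (0.22 to 1.52) for Oasl2, so the ratios of the 6 OAS genes lay between 0.64 and 0.86. On log2(value + 1) of the deposited FPKM the Oasl2 ratio was 0.22, below that band. The untreated ratios of Eif2ak2, 0.32 (0.21 to 0.43), and of Adar, 0.21 (0.12 to 0.31), were below that band, and their intervals lay below those of Oas1a, Oas1g, Oas2 and Oas3. The median over the 8 genes was 0.69, against 0.01 over all genes. How far cultures of 1 genotype differ from each other in these genes was not measured.

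With LPS the ratio between genotypes was smaller in size than without it for all 8 genes, and it was negative for 7 of them. None was called, where 3.49% of all genes were called. The interval lay below 0 for 5 of 8 and above 0 for none, against 20.1% of all genes on each side. Oas2 stood out with a log2 ratio of -0.50 (-0.57 to -0.44), followed by Oasl2 with -0.34 (-0.40 to -0.28). For the other 6 genes the ratio was between -0.10 and 0.04, with Oas1a at -0.10 (-0.15 to -0.05), Eif2ak2 at -0.09 (-0.15 to -0.04) and Oasl1 at -0.06 (-0.10 to -0.03). The intervals of Oas1g, Oas3 and Adar included 0; that of Adar ended just above it and lay below 0 when libraries were scaled by total counts, which made 6 of 8. In the additive edgeR model the genotype term called none of the 8 genes, with adjusted p of 0.416 to 0.987 and a smallest unadjusted p of 0.0643, and DESeq2 called none either; in edgeR it called 1.92% of all genes; that term averages the untreated and LPS-treated differences.

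**Figure D3:**
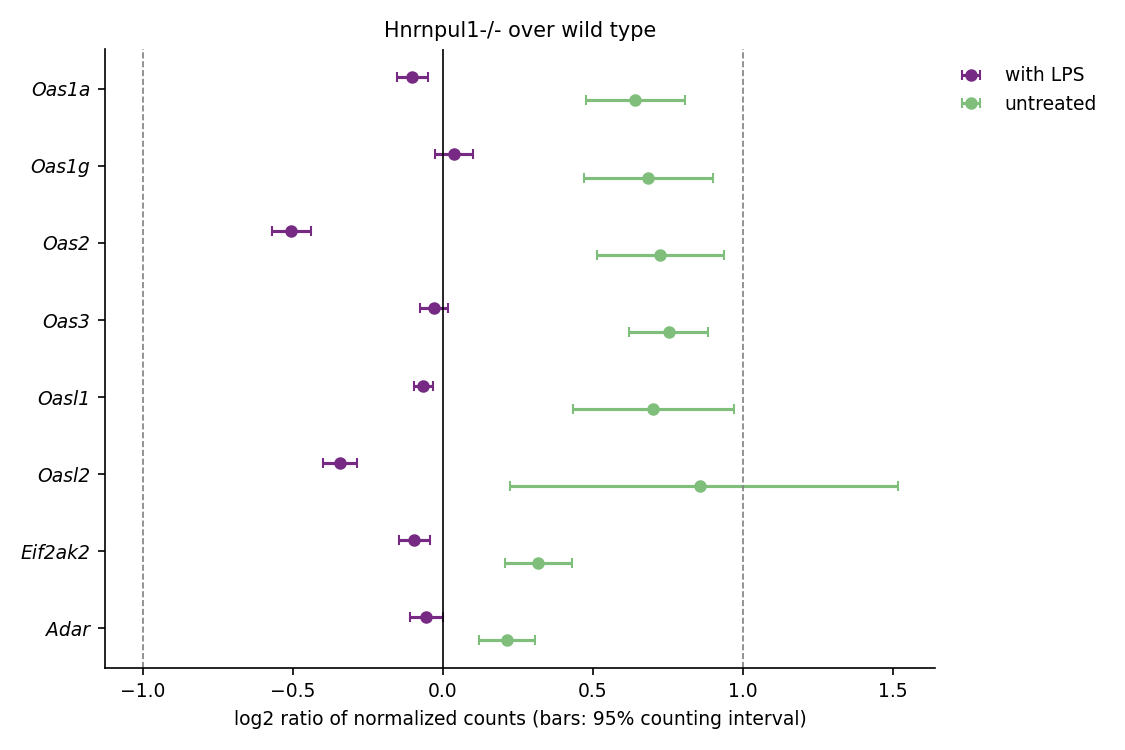
Log2 ratio of normalized counts, knockout over wild type, for the 8 genes with LPS (purple, upper point of each pair) and untreated (green, lower point), with 95% counting intervals; dashed lines mark 2-fold in either direction. All 8 untreated points lie right of 0, between 0.21 and 0.86, while the points with LPS lie between -0.50 and 0.04.

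The LPS ratio was therefore lower in knockout than in wild type for all 8 genes. The difference, LPS ratio in knockout minus LPS ratio in wild type, was called lower for Oas2 at -1.23 (-1.45 to -1.01) and Oasl2 at -1.20 (-1.81 to -0.59), where 1.84% of all genes were called lower. It was -0.78 (-0.92 to -0.64) for Oas3, -0.77 (-1.03 to -0.50) for Oasl1, -0.74 (-0.91 to -0.57) for Oas1a and -0.65 (-0.87 to -0.43) for Oas1g. On log2(value + 1) of the deposited FPKM the Oasl2 difference was -0.55, below 2-fold and so not called. Eif2ak2 at -0.41 (-0.54 to -0.29) and Adar at -0.27 (-0.38 to -0.16) differed least. The interval lay below 0 for 8 of 8, against 15.7% of all genes. This quantity is by arithmetic the LPS-treated genotype ratio minus the untreated one, so it shares all 4 libraries with them and is no separate evidence. Both an untreated interval above 0 and an interval of the difference below 0 were found in 8 of 8, against 5.68% of all genes, and both rest on the untreated libraries. For Oas3, Oasl1, Oas1a and Oas1g nearly the whole difference came from the untreated libraries, since their LPS-treated genotype ratios were between -0.10 and 0.04, and for Oas2 and Oasl2 both pairs of libraries contributed.

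Other features moved with genotype in the same libraries. Of the 10 macrophage markers, 3 were higher in knockout with LPS and 7 lower, by interval, against 20.1% of all genes on each side. Their summed level was 6061 CPM in LPS-treated knockout and 8876 CPM in LPS-treated wild type, and 3470 CPM in untreated knockout and 3960 CPM in untreated wild type. Most of the gap with LPS was in Lyz2, the macrophage lysozyme gene, with 1245 CPM in LPS-treated knockout and 3334 CPM in LPS-treated wild type. It was the only marker called, at a log2 ratio of -1.42 (-1.45 to -1.40), while Adgre1, Itgam and Ptprc had ratios of 0.77, 0.31 and 0.14. The part of these differences in the genotype ratios of the 8 genes was not tested.

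Pde12, a phosphodiesterase that breaks down oligoadenylates, and Abce1, a ribosome recycling factor, were called in no comparison; the Abce1 ratios were between -0.12 and 0.10 and those of Pde12 between -0.41 and 0.09.

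Among the other Oas1 copies of the second cluster, Oas1b, which has no synthetase activity and confers flavivirus resistance in mice that carry a full-length form, was listed as a polymorphic pseudogene. It had 626 and 651 reads in LPS-treated knockout and wild type, against 74 and 64 in untreated knockout and wild type. Its LPS ratios were 3.35 (3.0 to 3.71) in knockout and 3.65 (3.28 to 4.05) in wild type, close to those of Oas1a. Its untreated genotype ratio, 0.18 (-0.32 to 0.69), had an interval that included both 0 and the ratio of Oas1a. Oas1h was called higher with LPS in both genotypes on few reads, with 56 and 65 in LPS-treated knockout and wild type and 10 and 8 in untreated knockout and wild type. Oas1c was called in no comparison, with 92, 114, 91 and 86 reads in LPS-treated knockout, LPS-treated wild type, untreated knockout and untreated wild type. The LPS ratio of Oas1c was 0.28 (-0.15 to 0.72) in knockout and 0.71 (0.30 to 1.13) in wild type, where the interval lay above 0. Oas1d, Oas1e and Oas1f had at most 2 reads in any library, under the floor of 3 counts. Genes with high and low counts thus lay interspersed along the 191 kb.

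Oas1c and Oas1b lie head to head, with 121 bases between the starts of their gene models. The Oas1c window (chr5:120812591-120812650, minus strand) holds the ISRE core on the strand opposite to Oas1c, shown here because it lies between a gene that rose and one that was not called; capitals mark the match in the direction of Oas1c.
Oas1c: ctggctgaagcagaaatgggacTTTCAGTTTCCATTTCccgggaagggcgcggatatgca
Read on the other strand, the direction of Oas1b, the 16 capitals are identical to those of Oas1a and Oas1g above.

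**Figure D4:**
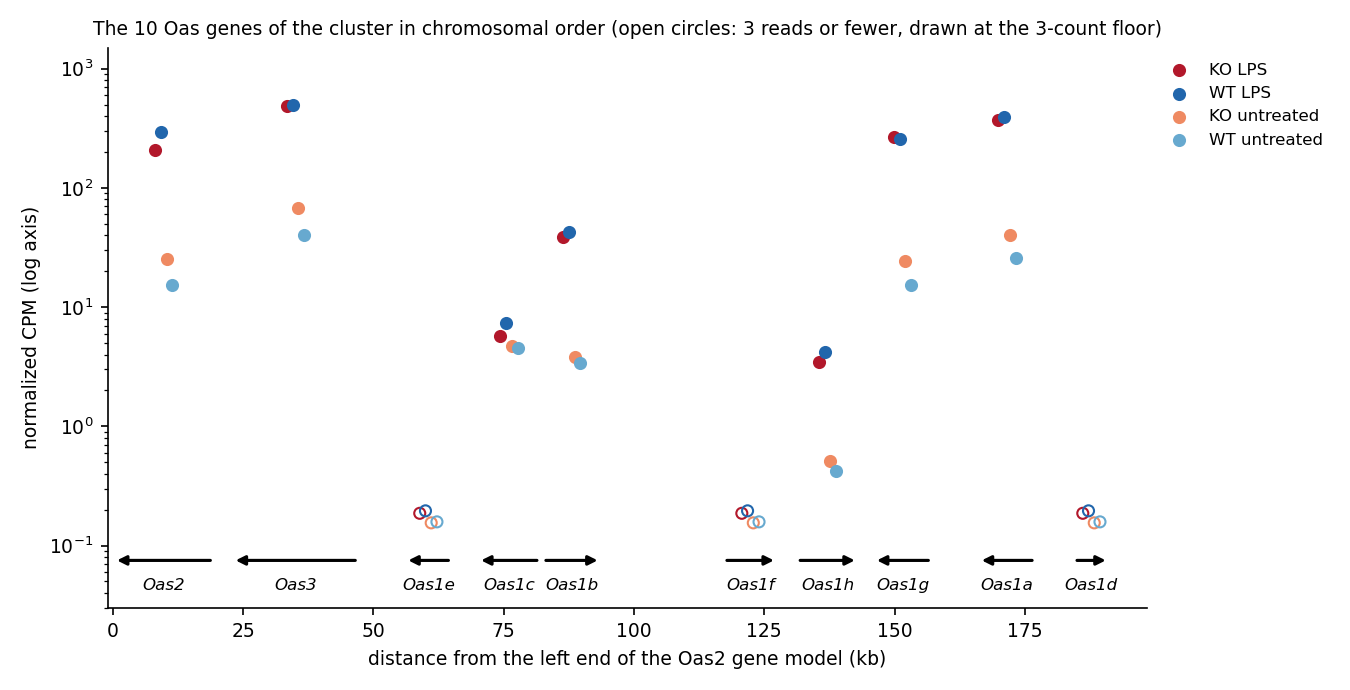
Normalized CPM (log axis) of the 10 Oas genes of the second cluster in chromosomal order, by distance in kb from the left end of Oas2; arrows show each gene model and its strand, colours the 4 libraries, and open circles genes with 3 reads or fewer drawn at the floor of 3 counts. Oas2, Oas3, Oas1b, Oas1g and Oas1a show the LPS-treated libraries well above the untreated ones, Oas1h does so at a low level, and Oas1c stays between 4.53 and 7.42 CPM in all 4 libraries.

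Of 16 other genes for proteins that bind double-stranded or Z-form RNA, 6 were called higher and 1 lower with LPS in each genotype. Of all genes, 11.6% and 11.2% were called higher, and 12% and 10.1% lower, in knockout and wild type. The list medians were 0.04 in knockout and 0.03 in wild type. The largest ratio was that of Zbp1, the sensor of Z-form RNA, at 9.18 (8.34 to 10.18) in knockout and 9.65 (8.67 to 10.87) in wild type, on 11 and 8 untreated reads. Ddx58, which encodes the sensor RIG-I, had 392 and 456 CPM in LPS-treated knockout and wild type, against 26.0 and 15.8 CPM in untreated knockout and wild type. Its libraries stood in the same order as those of Oas1a, with an untreated genotype ratio of 0.72 (0.51 to 0.93) and a difference of LPS ratios of -0.93 (-1.15 to -0.72). Ifih1, which encodes the sensor MDA5, went the other way: 297 and 268 CPM in LPS-treated knockout and wild type, against 3.30 and 4.63 CPM in untreated knockout and wild type. Its untreated genotype ratio was -0.49 (-0.98 to -0.007), on 64 reads in knockout and 88 reads in wild type. That interval ended just below 0. Dhx58, for the related protein LGP2, had an untreated genotype ratio of 0.54 (0.24 to 0.85). Over the 16 genes, the untreated genotype interval lay above 0 for 3 and below 0 for 3, against 15.8% and 15.2% of all genes.

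Adarb1, which encodes the other catalytic ADAR enzyme, ADAR2, differed from Adar in both LPS and both genotype comparisons. It had 79 reads in LPS-treated knockout and 162 in LPS-treated wild type, against 211 (untreated knockout) and 475 (untreated wild type). Knockout was lower than wild type with and without LPS, and LPS-treated lower than untreated in both genotypes. Its genotype ratio was called lower both with LPS, at -1.10 (-1.51 to -0.71), and untreated, at -1.20 (-1.44 to -0.96). Its LPS ratios, -1.15 (-1.54 to -0.77) in knockout and -1.24 (-1.51 to -0.98) in wild type, were called lower as well.

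Of 9 genes around eIF2 alpha, the substrate of PKR, 3 were called higher with LPS and none lower in each genotype. These were Ppp1r15a, whose product directs eIF2 alpha dephosphorylation, at 2.72 in knockout and 2.24 in wild type, Ddit3, which encodes the stress factor CHOP, at 2.02 and 2.60, and Atf4, the factor translated when eIF2 alpha is phosphorylated, at 1.53 and 1.32. Ppp1r15b, the constitutive partner of that phosphatase, was not called, at 0.38 and 0.45. With LPS, 11.6% and 11.2% of all genes were called higher, and 12% and 10.1% lower, in knockout and wild type. No gene of this list was called between genotypes, where 3.49% of all genes were called with LPS and 2.01% untreated. The untreated genotype interval lay above 0 for 1 of 9, Ddit3 at 0.56 (0.20 to 0.93), against 15.8% of all genes.

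Of 14 interferon signalling genes, 13 had enough reads to be tested. With LPS, 8 of those were called higher and none lower in each genotype. The shares of all genes were 11.6% and 11.2% higher, and 12% and 10.1% lower, in knockout and wild type. Irf7, the factor that amplifies interferon production and whose mRNA Oasl1 acts on, had 903 and 963 CPM in LPS-treated knockout and wild type, against 7.12 and 4.21 CPM in untreated knockout and wild type. Like the OAS genes it was higher in the untreated knockout library, at 0.76 (0.35 to 1.17). The untreated genotype ratio of Usp18, a brake on the interferon receptor, was 0.84 (0.56 to 1.12), and that of Isg15, a ubiquitin-like modifier, 0.58 (0.22 to 0.94). Socs1, an inhibitor of cytokine receptor signalling, had 10 reads (untreated knockout) and 15 reads (untreated wild type), and its interval (-1.93 to 0.64) included 0. The untreated interval lay above 0 for 6 of 13 genes and below 0 for none, against 15.8% and 15.2% of all genes. The list median was 0.12, against 0.69 for the 8 genes. With LPS no gene of this list was called between genotypes by the 2-fold rule, where 3.49% of all genes were called. Isg15 was higher in LPS-treated knockout at 0.50 (0.47 to 0.53), and the genotype term of the additive model passed for it, with an adjusted p of 0.0166 in edgeR and 0.0127 in DESeq2.

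**Figure D5:**
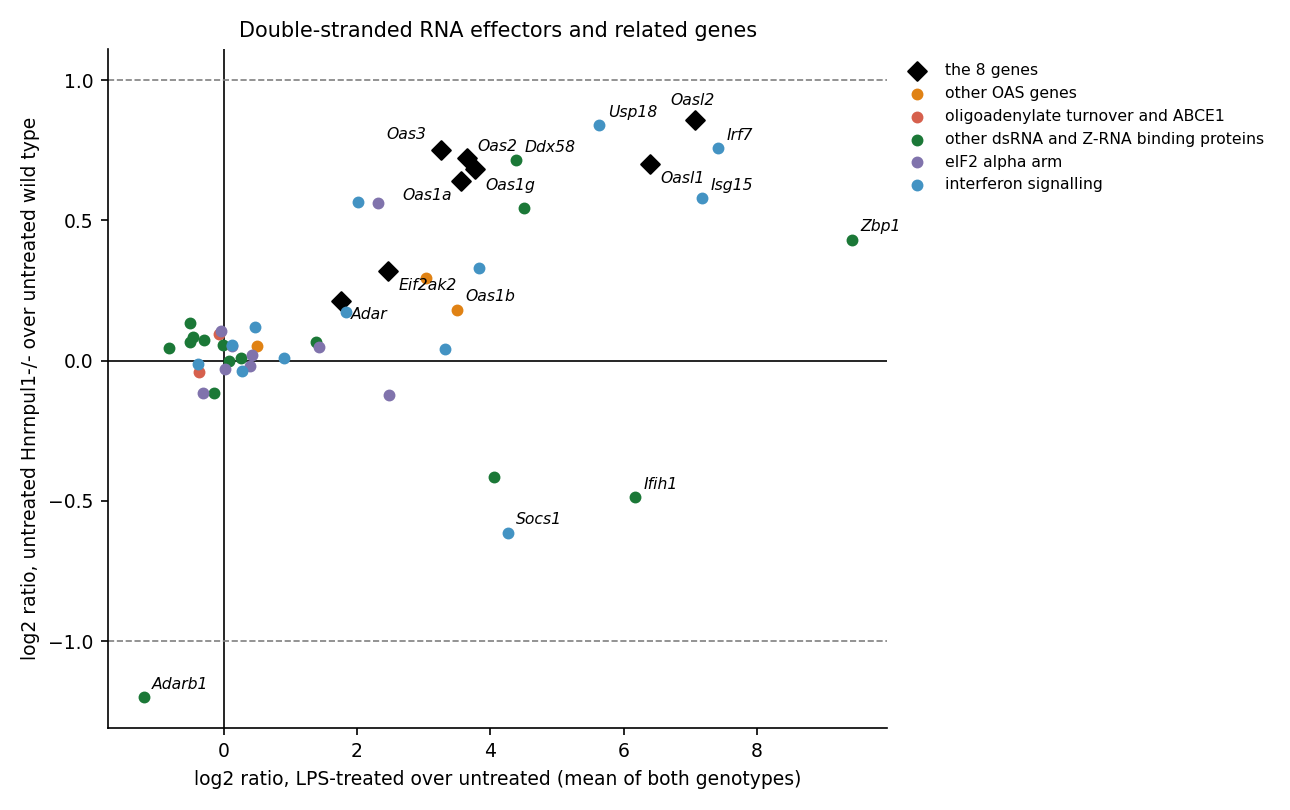
Log2 ratio of untreated knockout over untreated wild type against the log2 LPS ratio (LPS-treated over untreated, mean of both genotypes) for the 8 genes (black diamonds) and the genes of the other lists (coloured points); dashed lines mark 2-fold. The axes share the untreated libraries, so no relation is read between them; the 6 OAS genes lie between 0.64 and 0.86 on the vertical axis, Eif2ak2 and Adar at 0.32 and 0.21, Ifih1 at -0.49 and Adarb1 at -1.20.

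The genes whose profile over the 4 libraries was nearest to each member were sought among 9246 protein-coding genes, by the distance between centred log2 CPM values. For Oas1a they were H2-T23 (distance 0.0604), Sp100 (0.129) and Oas1g (0.229). For Oas1g they were Slfn8 (0.114), H2-T23 and Oas1a, and for Oas2 they were Oas1a (0.301), H2-T23 (0.314) and Rnf213 (0.320). The first neighbour of Oas2 was thus farther from it than those of Oas1a and Oas1g from them. Fyb (0.149), Sp100 and Nod2 were nearest to Oas3, and Gbp7 (0.106), Ifi44l and Phf11b to Oasl1. The nearest genes of Oasl2 were Ifi208, Irf7 (0.389) and Ifit1 (0.458); the place of Ifi208, with 0 reads in untreated knockout, depends on the floor of 3 counts. Trim21 (0.0965), Dtx3l and Spp1 were nearest to Eif2ak2, and Tasp1 (0.0505), Shisa5 and Atxn1 to Adar. Among the 8 genes themselves, the closest pairs were Oas1a with Oas1g (0.229), Oas1a with Oas2 (0.301) and Oas1a with Oas3 (0.322), and the most distant pair was Oasl2 with Adar (5.34). Over 4 libraries this distance is a description of similar values and carries no test.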

How the data were processed

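RNA was captured on poly-T beads and primed with random hexamers, per the labels' protocols. Per the submitters' processing notes, the tools were featureCounts 1.5.0-p3, HISAT2 2.0.5 and CASAVA 1.8, with build GRCm38 (mm10) and a strand setting not given in the sources used here. Their deposited tables hold whole-number read counts per gene, not normalized. The deposited FPKM values are the authors' counts per gene length with a scaling per library. Here TMM factors were computed in edgeR 4.0.16 (R 4.3.3) over the 11640 genes whose mean CPM reached 1; they were 0.899, 0.901, 1.12 and 1.11 in LPS-treated knockout, LPS-treated wild type, untreated knockout and untreated wild type. Each comparison is a log2 ratio between 2 libraries, taken on TMM-normalized counts, and its 95% interval is the exact conditional one of Clopper and Pearson, computed with SciPy 1.17.1. Where a library had 0 reads of a gene, 3 were used, which is 0.186, 0.195, 0.155 and 0.158 CPM in the same libraries. The difference of LPS ratios has a delta-method interval. Levels have exact Poisson intervals. The additive genotype and LPS model was fitted in edgeR, and in DESeq2 1.42.0 as an alternative, with an adjusted p threshold of 0.05 over all genes tested. The calling rule and fits were run on simulated data that held LPS effects alone, so recovery of genotype effects or of differences between LPS ratios was not tested.

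The 8 genes and the lists were chosen with earlier results of these data known. Text names the 8 genes, Hnrnpul1, all genes of the other OAS list, Abce1 and Pde12, up to 4 genes of each other list with the largest mean LPS ratio and any called between genotypes, and the 3 nearest genes whose mean CPM reached 5; the macrophage markers named and Cdh5 were chosen after their values were seen. Ddit3 carried more than 1 identifier, of which the one with most reads was used. Promoter windows are from RefSeq (GRCm38.p6), transcript words and coding sequences from GENCODE M21 (GRCm38). Alternatives were DESeq2 size factors, total counts, other filters and call rules, protein-coding genes alone and the deposited FPKM as log2(value + 1) or log2(value + 0.1); the sum of Oas1a and Oas1g was added after the data were seen. No sample or column was left out, and 1 gene of the lists is not reported here.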

Additional observations from a re-analysis of the deposited data

Results flagged for a closer look

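The LPS response of 2 of the genes described differed between genotypes by the rule used for single genes, a difference of at least 2-fold whose counting interval excludes 0. By that rule 1.84% of all genes were called lower. The knockout LPS log2 ratio less the wild-type one was -1.23 for Oas2 and -1.20 for Oasl2. The interval covers counting error of 4 single libraries, so it says nothing of the spread between cultures. For Oas2 the LPS-treated libraries differed by -0.50 and the untreated ones by 0.72, and for Oasl2 by -0.34 and 0.86. The untreated Oasl2 values rest on 61 reads (knockout) and 33 reads (wild type). No cause was tested.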

How the results depend on the processing

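No ratio of the 8 genes changed sign in any of the alternatives run for any comparison. All 8 were called higher with LPS in both genotypes in each, as were all 7 units where Oas1a and Oas1g were summed. The 1.5-fold rule called 19.3% and 18.9% of all genes higher with LPS in knockout and wild type. No paired analysis was possible because each group holds 1 library, and for the same reason no replicate could be left out. Total-count scaling moved the median of all genes to -0.33 in the knockout LPS comparison and -0.30 in the wild-type one, with 31.4% and 33.9% of calls higher against 49.0% and 52.6%. Under it the members' medians were 2.80 and 3.71. Calls on the deposited FPKM used the fold alone, with no interval, over 10923 genes chosen by mean FPKM. With log2(FPKM + 1), 57.9% and 59.5% of LPS calls and 51.6% of interaction calls were higher, the last against 39.2% by the main rule. The number of members called lower for the difference of LPS ratios was 2 (1.84% of all genes). It became 6 under the 1.5-fold rule (3.86% of all genes). With the whole interval beyond 2-fold it was 1, where 27 of 11640 genes were called lower. It was 1 with log2(FPKM + 1) and 1 with log2(FPKM + 0.1), where 124 and 244 of 10923 genes were called lower. With log2(FPKM + 0.1), Oas2 was at -1.20 and Oasl2 at -0.999. Under the 1.5-fold rule 6 members were called higher in untreated knockout (2.71% of all genes). Numbers of all genes called that moved by over 1.5 times follow in the order LPS in knockout, LPS in wild type, knockout against wild type with LPS, the same untreated, and the difference. With the 1.5-fold rule they were 4695, 4432, 987, 569 and 756, and with a mean CPM of at least 10 they were 1709, 1568, 101, 43 and 62. For the last 3 they were 786, 567 and 596 with no filter, and 121, 48 and 39 where the whole interval had to lie beyond 2-fold. Restricting the test to protein-coding genes gave 232 for the difference. With log2(FPKM + 1) they were 1820 for LPS in knockout, 197 with LPS and 107 untreated. The additive genotype effect called 223 genes in edgeR, 133 in DESeq2 and 463 with no filter, and none of the 8 genes in these fits. Depth limits Oasl2 most, with 33 reads in the untreated wild-type library.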
